A study of Mus musculus with 15 samples.

Results

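The 7 sirtuins, the 2 catalytic subunits of AMPK and PGC-1alpha were followed through 15 lists of H3K4me3 islands from mouse liver. The 10 genes were taken by name (Sirt1 to Sirt7, Prkaa1, Prkaa2 and Ppargc1a) out of 21755 protein-coding genes, and a gene was called marked in a list when an island lay within 1 kb of any of its annotated TSSs. Islands are stretches of enriched windows of 200 bp as SICER2 reports them, in mm10 coordinates, so their widths move in steps of 200 bp. The width of the widest island was the measure for each gene and library, with 0 where there was none.

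Livers came from C57BL/6 females (C57BL/6J in the study's methods) on 5 diets, with 3 mice and 3 libraries per diet and no pooling. All mice were wild type and carried no transgene. SD is the standard diet and CR a restricted ration of the same food. HF is a high-fat diet. YD and RD are the standard food with its maize exchanged for seed powder of an anthocyanin-free yellow corn or a near-isogenic anthocyanin-rich purple corn, and together they are the corn diets. Feeding started at 3 months of age and lasted 10 months, while the labels give an age of 12 months for every mouse. Chromatin was taken from 4 sections of formalin-fixed, paraffin-embedded liver (PAT-ChIP), so each list averages over all cells of the section. Fewer cells with the mark and less of it per cell cannot be told apart in such lists.

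H3K4me3 is laid down on nucleosomes around the start sites of active genes, and its width and height vary with the promoter. Sirtuins are enzymes that remove acetyl or longer acyl groups from proteins and consume NAD+ in doing so. AMPK is the kinase that answers a fall in ATP, and PGC-1alpha is a coactivator that raises mitochondrial and, in fasting liver, gluconeogenic transcription. AMPK phosphorylates PGC-1alpha and SIRT1 deacetylates it, which is why these genes are usually discussed together under nutrient restriction.

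The lists held 7825 to 33752 islands, and 5589269 to 15449854 reads were recovered from their scores. YD_1 had both the most reads and the fewest islands, while CR_1 had the fewest reads and 14446 islands. Between 17.5% (YD_3) and 54.6% (HF_1) of protein-coding genes were marked per library, with the YD libraries lowest at 17.5% to 26.5%. Of 6 hepatocyte markers 3 to 6 were marked in every library. Of 26 markers of Kupffer, endothelial, stellate, bile duct and lymphoid cells, 14 were marked in HF_1, 8 in HF_3 and 0 to 4 in the other libraries, and none in the YD libraries. Timd4, Vsig4, Marco, Col1a1, Krt19, Epcam, Cd3e and Cd79a were marked in no list. Library names come in 2 forms, PATChIP (CR_1, CR_2, HF_2, HF_3 and RD_1) and ChIP (the remaining 10).

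Start sites and sequence came first, since several of the 10 genes have more than 1 TSS. TSSs within 500 bp of each other were joined, and the group with the most protein-coding transcripts was taken as the main promoter of the gene. Sequences are from the RefSeq assembly GRCm38.p6, which is mm10, and span 250 bp before to 50 bp after the TSS on the strand of the gene. Capitals mark matches, on either strand, to the GC box GGGCGG, the CCAAT box, the TATA box TATAAA, the E-box CACGTG, the ETS core CCGGAAG, the NRF1 core GCGCATGCG and the cAMP response element (CRE) TGACGTCA, none of which lies inside another. The 5 promoters printed are the marked and the unmarked promoter of Ppargc1a, the 2 promoters richest in CpG, and that of Sirt7, the gene whose width differed most between the corn and the other diets.

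Ppargc1a, marked promoter, chr5:51553873-51554172, minus strand: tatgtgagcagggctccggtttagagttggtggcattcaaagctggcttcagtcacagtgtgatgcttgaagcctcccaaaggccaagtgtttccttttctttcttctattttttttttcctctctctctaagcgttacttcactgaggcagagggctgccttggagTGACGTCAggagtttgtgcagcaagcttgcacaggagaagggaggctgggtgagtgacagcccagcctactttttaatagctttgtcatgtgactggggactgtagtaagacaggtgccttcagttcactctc
Ppargc1a, upstream promoter, chr5:51567677-51567976, minus strand: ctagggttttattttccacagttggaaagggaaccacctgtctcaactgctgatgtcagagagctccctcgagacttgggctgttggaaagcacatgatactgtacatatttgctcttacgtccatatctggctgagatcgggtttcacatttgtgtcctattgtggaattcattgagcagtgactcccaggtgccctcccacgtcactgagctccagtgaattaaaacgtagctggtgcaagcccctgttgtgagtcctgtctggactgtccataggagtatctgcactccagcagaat
Sirt1, main promoter, chr10:63338983-63339282, minus strand: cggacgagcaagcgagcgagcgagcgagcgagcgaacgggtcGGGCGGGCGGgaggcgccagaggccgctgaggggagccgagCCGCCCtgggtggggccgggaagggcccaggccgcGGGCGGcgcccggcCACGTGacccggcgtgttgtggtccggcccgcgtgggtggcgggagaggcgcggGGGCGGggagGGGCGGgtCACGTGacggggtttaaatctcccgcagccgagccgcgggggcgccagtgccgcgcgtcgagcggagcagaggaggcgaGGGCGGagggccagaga
Prkaa1, main promoter, chr15:5143611-5143910, plus strand: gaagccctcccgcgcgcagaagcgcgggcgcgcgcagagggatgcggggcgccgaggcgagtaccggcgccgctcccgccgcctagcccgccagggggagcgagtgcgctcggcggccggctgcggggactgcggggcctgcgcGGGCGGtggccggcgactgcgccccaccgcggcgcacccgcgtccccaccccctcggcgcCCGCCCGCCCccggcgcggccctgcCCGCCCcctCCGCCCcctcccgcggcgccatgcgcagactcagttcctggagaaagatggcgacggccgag
Sirt7, main promoter, chr11:120624965-120625264, minus strand: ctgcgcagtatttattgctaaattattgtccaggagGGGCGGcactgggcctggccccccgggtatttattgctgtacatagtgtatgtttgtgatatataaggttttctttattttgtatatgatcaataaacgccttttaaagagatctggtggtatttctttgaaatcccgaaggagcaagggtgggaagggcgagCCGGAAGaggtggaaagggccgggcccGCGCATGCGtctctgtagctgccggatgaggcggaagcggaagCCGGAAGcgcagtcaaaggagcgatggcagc

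Ppargc1a was marked at only 1 of its 2 promoters. The downstream start sites at chr5:51553871-51553922 had an island in 14 of 15 lists, all but YD_3. The upstream start sites at chr5:51567704-51567726, which lie 13804 bp further 5′ and belong to the alternative promoter known for its use in muscle and brown fat, had none in any of the 15. The marked promoter is poor in CpG, with 3 CpG dinucleotides in 300 bp (23.3% of 32841 RefSeq promoters have fewer), and the unmarked one holds 5. Among 2661 protein-coding genes with fewer than 4 CpG at the main promoter, 1.84% were marked there in 14 or more lists and 90.3% in 2 or fewer. The marked promoter holds the CRE, the site known to bind CREB, and 1.79% of all promoters hold these letters. None of the 7 motifs was found in the upstream window.

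Sirt1, the nuclear deacetylase most often linked to calorie restriction, showed the reverse. Its main promoter at chr10:63339032 holds 47 CpG in 300 bp, 7 GC boxes and 2 E-boxes, and 98.6% of promoters have fewer CpG. It was marked in only 2 lists. In SD_1 an island of 600 bp covered bases 632 to 1231 downstream of the TSS. In HF_1 one of 1000 bp ended at position -169 and another of 1200 bp began at position 632. No island in any list contained the TSS itself. In 8 lists (SD_1, CR_1, CR_2, CR_3, HF_1, HF_3, RD_1 and RD_2) an island of 800 to 1800 bp lay at a start site of 1 coding transcript 42672 bp upstream, which is 739 bp from the start of Dnajc12, a co-chaperone gene on the other strand that shared all 8 islands. Among 381 protein-coding genes with 45 or more CpG, 23.6% were marked in 2 or fewer lists and 53.4% of the marks contained the TSS, against 45.2% and 76.7% over all 14461 genes with a sequence.

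Neighbours shared islands at other members too. All 14 islands at Sirt2 also lay within 1 kb of Nfkbib, an inhibitor of NF-kappaB whose start is 95 bp away on the other strand. Those at Sirt3, also 14, were shared with Psmd13, a proteasome subunit gene 99 bp away. All 10 islands at Sirt6 lay within 1 kb of Ankrd24, whose start is 743 bp away. The 7 islands at the main promoter of Sirt7 were shared with Mir6936, a miRNA gene that starts 93 bp away. In SD_1, CR_1, HF_1 and HF_3 a further island near an internal noncoding start of Sirt7 was shared with Pcyt2, an enzyme gene of phosphatidylethanolamine synthesis, and in CR_1 it was the only one. Sirt5 had an island at an internal coding start 5214 bp into the gene in HF_2, RD_1 and RD_2, the only one in RD_2. Sirt4, Sirt5, Prkaa1, Prkaa2 and Ppargc1a shared no island with another gene.

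**Figure D1:**
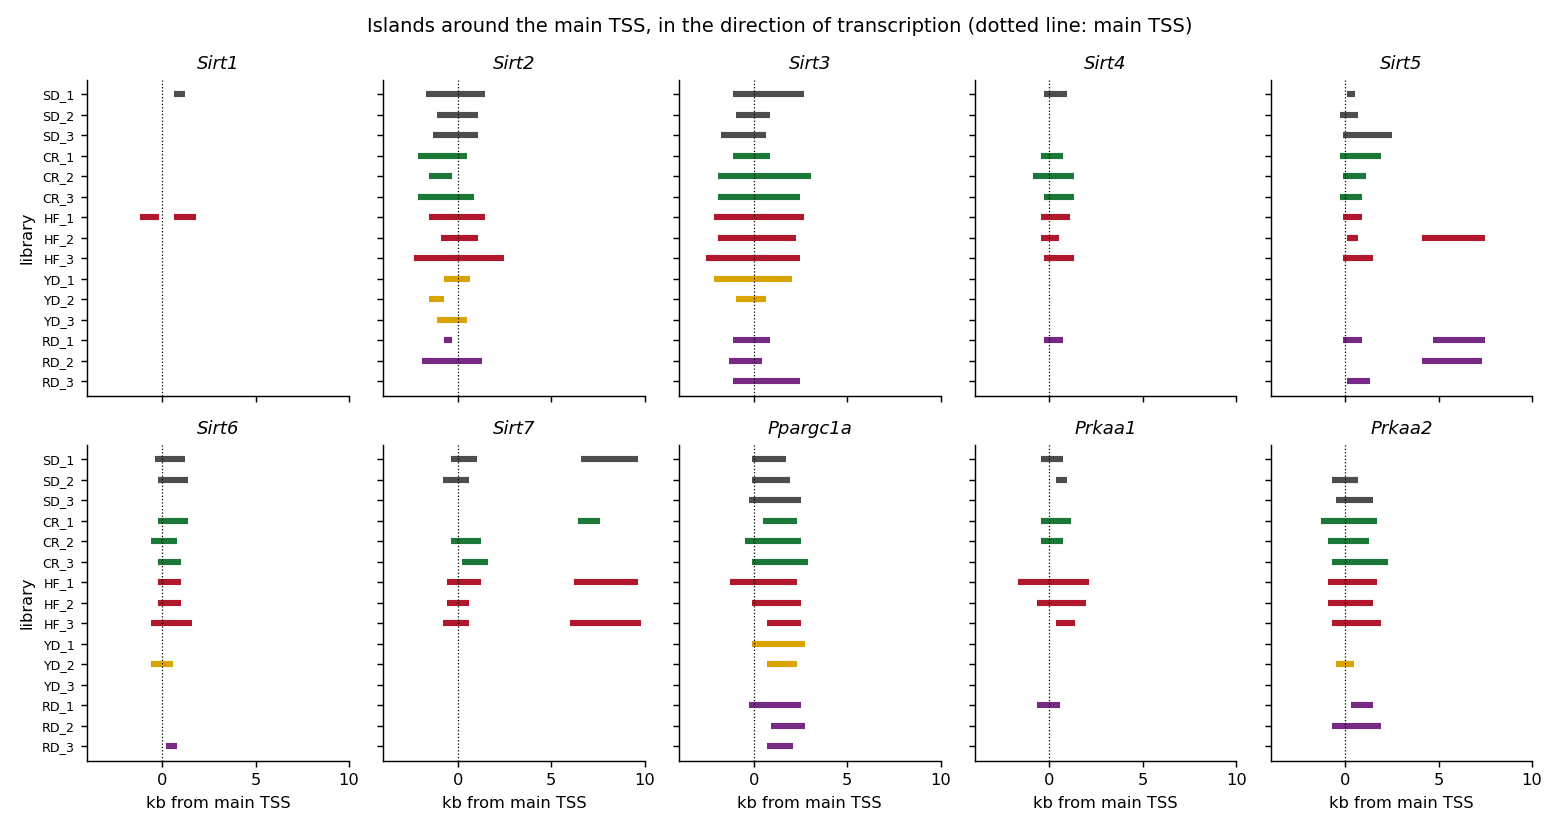
Horizontal bars are islands in each of the 15 libraries (rows, coloured by diet), drawn by distance in kb from the main TSS in the direction of transcription, from 4 kb upstream to 10 kb downstream. Ppargc1a is marked in 14 lists by islands that run downstream of the TSS, while the TSS of Sirt1 is covered in none; the islands 42672 bp upstream of Sirt1 are outside the range drawn.

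Summed over the 15 lists, 107 of 150 gene and library pairs were marked, and 99 of 150 at the main promoter. The share was 71.3%, beside a mean of 37.6% ± 11.1 (SD, n = 15 libraries) over all protein-coding genes. That mean counts 8711 genes with no island in any list, and none of the 10 members is such a gene. The 13044 genes with an island in any list were marked in a median of 11 lists, and the members in a median of 10.5. Of the 30 pairs of each diet, 29 were marked for CR and for HF, 22 for SD, 18 for RD and 9 for YD. The mean share over protein-coding genes stood at 43.4% for CR, 51.2% for HF, 39.6% for SD, 31.2% for RD and 22.8% for YD. The number of marked members per library was 9, 8 and 5 in SD, 10, 10 and 9 in CR, 10, 9 and 10 in HF, 3, 5 and 1 in YD, and 8, 6 and 4 in RD. Every CR and HF library had at least 9 of the 10 marked and no YD library more than 5. At the main promoter alone 25 of 30 pairs were marked for CR, 28 for HF, 22 for SD, 15 for RD and 9 for YD.

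**Figure D2:**
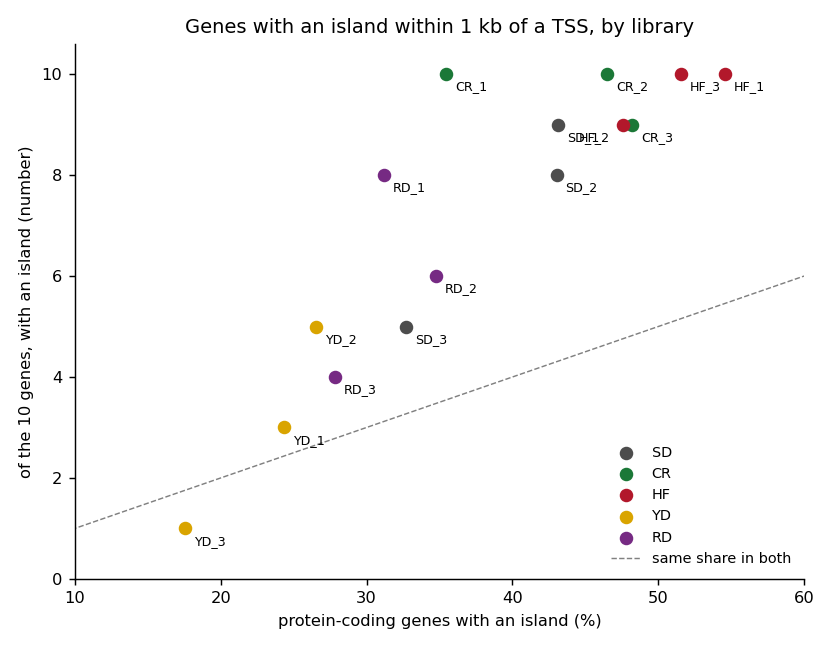
Each point is a library, with the percent of protein-coding genes marked on the x axis and the number of the 10 genes marked on the y axis. The dashed line is an equal share, and the percent counts 8711 genes with no island in any list. YD_3 (1 of 10, 17.5% of coding genes) lies lowest, and the CR and HF libraries have 9 or 10.

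Among the sirtuins of the nucleus, Sirt1 had widths of 1200, 0 and 0 bp in SD, 800, 1200 and 1000 bp in CR, 1800, 0 and 1400 bp in HF, 0, 0 and 0 bp in YD, and 1200, 800 and 0 bp in RD, all of them at the upstream start described above. At its main promoter only SD_1 (600 bp) and HF_1 (1200 bp) had a value. Sirt6, a chromatin deacetylase that restrains glycolytic genes, had widths of 1600, 1600 and 0 bp in SD, 1600, 1400 and 1200 bp in CR, 1200, 1200 and 2200 bp in HF, 0, 1200 and 0 bp in YD, and 0, 0 and 600 bp in RD. Every CR and HF library thus carried an island at Sirt6 of at least 1200 bp, as did 1 of the 6 corn-diet libraries.

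Sirt7, the sirtuin of the nucleolus, had widths of 3000, 1400 and 0 bp in SD, 1200, 1600 and 1400 bp in CR, and 3400, 1200 and 3800 bp in HF. In all 6 YD and RD libraries the width was 0. The widest values, in SD_1, HF_1 and HF_3, were those of the island shared with Pcyt2. At the main promoter alone Sirt7 measured 1400, 1400 and 0 bp in SD, 0, 1600 and 1400 bp in CR, and 1800, 1200 and 1400 bp in HF, again with 0 in the 6 corn-diet libraries. Where marked, these islands were of similar width, from 1200 to 1800 bp, so the spread of Sirt7 between libraries was mostly that between an island and none. The promoter holds 2 ETS cores and an NRF1 core, letters found in 8.86% and 1.75% of all promoters.

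Sirt2, the cytosolic tubulin deacetylase, was marked in 14 lists. Its widths were 3200, 2200 and 2400 bp in SD, 2600, 1200 and 3000 bp in CR, 3000, 2000 and 4800 bp in HF, 1400, 800 and 1600 bp in YD, and 400, 3200 and 0 bp in RD. The 3 SD values all lay above the 3 YD values, while RD ran from 0 to 3200 bp.

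Of the mitochondrial sirtuins, Sirt3, the main deacetylase of mitochondrial enzymes, had the widest islands of the 10 genes. Its widths were 3800, 1800 and 2400 bp in SD, 2000, 5000 and 4400 bp in CR, 4800, 4200 and 5000 bp in HF, 4200, 1600 and 0 bp in YD, and 2000, 1800 and 3600 bp in RD. The HF values were high and close together, and the YD values ran from none to 4200 bp. Every island at Sirt3 contained the main TSS.

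Sirt4, an inhibitor of glutamate dehydrogenase, had widths of 1200, 0 and 0 bp in SD, 1200, 2200 and 1600 bp in CR, 1600, 1000 and 1600 bp in HF, 0, 0 and 0 bp in YD, and 1000, 0 and 0 bp in RD. It was marked in all 6 CR and HF libraries and in 2 of the other 9. Sirt5, the desuccinylase, had widths of 400, 1000 and 2600 bp in SD, 2200, 1200 and 1200 bp in CR, 1000, 3400 and 1600 bp in HF, 0, 0 and 0 bp in YD, and 2800, 3200 and 1200 bp in RD. All 12 libraries outside YD carried an island at Sirt5, and no YD library did. At its main promoter HF_2 measured 600 bp, RD_1 1000 bp and RD_2 0 bp, the wider values there being those of the internal start.

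The catalytic subunits of AMPK differed from each other. Prkaa1, the more widely expressed of the pair, had widths of 1200, 600 and 0 bp in SD, 1600, 1200 and 0 bp in CR, 3800, 2600 and 1000 bp in HF, 0, 0 and 0 bp in YD, and 1200, 0 and 0 bp in RD. Prkaa2, the subunit prominent in muscle and liver, had widths of 0, 1400 and 2000 bp in SD, 3000, 2200 and 3000 bp in CR, 2600, 2400 and 2600 bp in HF, 0, 1000 and 0 bp in YD, and 1200, 2600 and 0 bp in RD. Prkaa1 was marked in 8 lists and Prkaa2 in 11, and Prkaa2 was the narrower of the pair in SD_1, HF_1 and HF_2 and in no other library. Prkaa1 has the most CpG of the 10 promoters, 52 in 300 bp, and 99.4% of promoters have fewer.

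Ppargc1a had widths of 1800, 2000 and 2800 bp in SD, 1800, 3000 and 3000 bp in CR, 3600, 2600 and 1800 bp in HF, 2800, 1600 and 0 bp in YD, and 2800, 1800 and 1400 bp in RD. Its coefficient of variation over the libraries, 0.405, was the lowest of the 10. Of its 14 islands 9 contained the main TSS, and the other 5 (CR_1, HF_3, YD_2, RD_2 and RD_3) began 522 to 922 bp downstream of it. All 14 ended 1721 to 2921 bp downstream, so the mark lay over the start of the gene rather than before it.

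**Figure D3:**
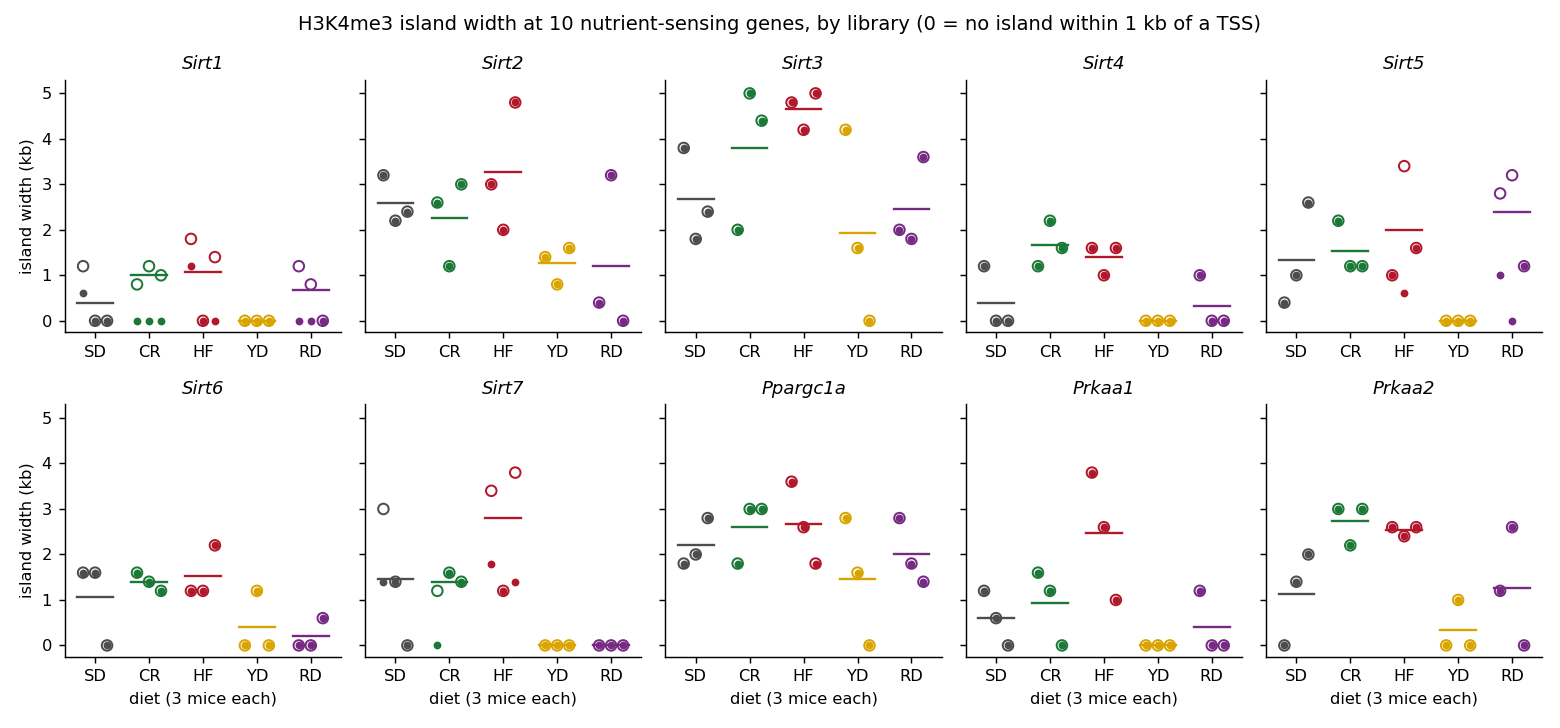
Open circles are the widest island within 1 kb of any TSS and filled points the widest at the main promoter, in kb, for the 3 mice of each diet; bars are means of the open circles and 0 means no island. Sirt7 is at 0 in all 6 YD and RD libraries, Sirt5 in the 3 YD libraries, and the filled points of Sirt1 are at 0 except in SD_1 and HF_1.

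Ordered by mean width at the main promoter over the 15 libraries, Sirt3 came first (3107 bp ± 1538, SD), then Ppargc1a (2187 ± 886), Sirt2 (2120 ± 1260), Prkaa2 (1600 ± 1161), Sirt5 (933 ± 799), Sirt6 (920 ± 751), Prkaa1 (880 ± 1128), Sirt4 (760 ± 790), Sirt7 (680 ± 763) and Sirt1 (120 ± 336). No neighbours in this order differed by more than the SD of their difference within a library. Sirt3 was wider than Ppargc1a in 9 lists and narrower in 3, and Sirt7 wider than Sirt1 in 7 and never narrower.

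SICER2 scores are not scaled between libraries, so they were turned into percentiles within a list (100 is the highest score). At the main promoter the median percentile over the marked lists was 93.4 for Sirt3 (65.5 to 98.7), 84.2 for Sirt2 (15.3 to 95.1) and 76.2 for Sirt7 (61.6 to 84.0). It was 70.4 for Ppargc1a, 56.3 for Prkaa2, 50.7 for Sirt4, 50.6 for Sirt6, 46.3 for Sirt5 and 43.5 for Prkaa1, and Sirt1 stood at 36.5 and 54.7 in its 2 lists. Ppargc1a had the largest range, from 6.23 in YD_2 and 14.4 in YD_1 to 93.6 in CR_3. Its island in YD_1 was as wide (2800 bp) as those in SD_3 and RD_1, which stood at 90.2 and 88.5. Width and rank therefore did not order the libraries in the same way for this gene.

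The corn diets (6 mice) were compared with SD, CR and HF together (9 mice). CR and HF also differ from the corn diets in ration or in fat, so this comparison does not isolate the exchange of maize. All 10 members had a lower mean width in the corn diets, with a median difference of -1083 bp. Over the 13044 protein-coding genes with an island in any list, 95.3% were lower and the median difference was -844 bp, so the direction was that of nearly all genes. Only Sirt7 passed the two-sided exact permutation test after Benjamini-Hochberg adjustment over all 13044 genes, 1 of 10 members beside 10.5% of the genes tested. Its mean was 0 bp in the corn diets (0 of 6 marked) and 1889 bp ± 1237 (SD, n = 9) in the others (8 of 9 marked), a difference of -1889 bp (exact permutation p = 0.00340, adjusted p = 0.0423). The groups overlapped, since SD_3 was also at 0. Against SD alone, Sirt7 overlapped in both YD and RD (-1467 bp and exact permutation p = 0.400 in each, where the smallest possible is 0.1).

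The call for Sirt7 did not hold at its main promoter alone, where the difference was -1133 bp (exact permutation p = 0.00699, adjusted p = 0.0546) and no member was called beside 10.4% of 12290 genes. It was also lost on leaving out any of 11 libraries. The adjusted p from the exact permutation test was 0.0609 without YD_1, 0.0837 without YD_2, 0.0944 without YD_3, 0.0714 without RD_1, 0.0511 without RD_2 and 0.0757 without RD_3. It was 0.0541 without CR_2, 0.0552 without CR_3, 0.0590 without HF_1, 0.0542 without HF_2 and 0.0575 without HF_3, and 0.0248 to 0.0498 without any of the remaining 4. Over these omissions the share of all genes called ran from 0% (without YD_3) to 18.7% (without SD_3). With labels permuted only among mice of the same replicate number the adjusted p was 0.0654. Within the 10 libraries of the ChIP form of name the difference was -1840 bp (5 against 5 mice, exact permutation p = 0.0476), and within the 5 of the PATChIP form it was -1950 bp (1 against 4, where no exact permutation p can fall under 0.2).

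At an unadjusted p under 0.05, 5 of 10 members differed beside 39.3% of all genes tested. These were Sirt7 and, with exact permutation p values, Sirt6 (-1033 bp, p = 0.00779, adjusted p = 0.0566), Sirt4 (-989 bp, p = 0.0172, adjusted p = 0.0762), Sirt2 (-1478 bp, p = 0.0196, adjusted p = 0.0819) and Prkaa2 (-1333 bp, p = 0.0308, adjusted p = 0.0983). Prkaa1 (-1133 bp), Sirt3 (-1511 bp), Ppargc1a (-756 bp), Sirt1 (-489 bp) and Sirt5 (-422 bp) did not pass even unadjusted with all libraries. With 1 library left out, Ppargc1a passed unadjusted without YD_1 or RD_1 (both -969 bp, exact permutation p = 0.0455) and stood at -409 bp without YD_3. Sirt3 passed unadjusted without SD_2, SD_3, CR_1, YD_1 or RD_3, and Prkaa1 without SD_3, CR_3 or RD_1. Sirt5 stood at -182 bp without any 1 of the YD libraries, -200 bp without HF_2, -742 bp without RD_1 and -822 bp without RD_2. For Sirt5 the main promoter alone gave -944 bp (exact permutation p = 0.0228, adjusted p = 0.0879), since the internal islands of RD_1 and RD_2 were then left out. A share of members near that of all genes is no result about the members.

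HF against the other 12 mice gave higher mean widths at all 10 members, with a median difference of 983 bp beside 917 bp over all genes. No member and none of the 13044 genes (0%) passed the exact permutation test after adjustment, and 2 members passed unadjusted beside 32.9% of all genes. With 1 diet against 12 mice no exact permutation p can fall under 0.00220. In HF 409 genes reached that floor, and the smallest adjusted p was 0.0701. Prkaa1 averaged 2467 bp ± 1405 (SD, n = 3) in HF and 483 bp ± 635 (n = 12) elsewhere, a difference of 1983 bp (exact permutation p = 0.0110, adjusted p = 0.0917). Sirt7 averaged 2800 bp ± 1400 in HF and 717 bp ± 989 elsewhere, a difference of 2083 bp (exact permutation p = 0.0154, adjusted p = 0.101), which was 983 bp at its main promoter (exact permutation p = 0.0462, adjusted p = 0.143). HF_1, the library with 14 of 26 markers of other cell types marked, held the widest Prkaa1 island, and leaving it out gave 1317 bp for Prkaa1 (exact permutation p = 0.0549) and 1783 bp for Sirt7 (exact permutation p = 0.0659). HF_3, with 8 of the 26, held the widest Sirt7 island, and leaving it out gave 2717 bp for Prkaa1 (exact permutation p = 0.0110) and 1583 bp for Sirt7 (exact permutation p = 0.0769). The part of those cells in the result was not tested. Within the ChIP form (1 HF library against 9) the difference was 3600 bp for Prkaa1 and 2756 bp for Sirt7, and within the PATChIP form (2 against 3) it was 467 bp and 1567 bp, where no exact permutation p can fall under 0.1.

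For YD against the other 12 mice all 10 members were lower (median -1083 bp, beside -783 bp over all genes), and again no member and no gene (0%) passed after adjustment. Unadjusted, 2 members passed beside 16.3% of genes. Sirt5 averaged 0 bp in YD and 1817 bp ± 985 (SD, n = 12) elsewhere, a difference of -1817 bp (exact permutation p = 0.0110, adjusted p = 0.220), and was the only member whose groups did not overlap, beside 1.69% of genes that were lower without overlap. At the main promoter the groups met at 0 in RD_2, and the difference was -1167 bp (exact permutation p = 0.0242, adjusted p = 0.252). Prkaa2 averaged 333 bp ± 577 in YD and 1917 bp ± 1053 elsewhere, a difference of -1583 bp (exact permutation p = 0.0286, adjusted p = 0.263). All YD libraries are of the ChIP form, and within it (3 against 7) the difference was -1514 bp for Sirt5 (exact permutation p = 0.0417) and -1324 bp for Prkaa2 (exact permutation p = 0.158).

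In CR, the diet to which this set of genes is most often tied, only Sirt4 passed unadjusted, beside 3.75% of genes, and no member and no gene (0%) after adjustment. Sirt4 averaged 1667 bp ± 503 (SD, n = 3) in CR and 533 bp ± 684 (n = 12) elsewhere, a difference of 1133 bp (exact permutation p = 0.0198, adjusted p = 1), which was 1289 bp within the ChIP form (1 against 9) and 500 bp within the PATChIP form (2 against 3). Sirt1 averaged 1000 bp ± 200 in CR at the start near Dnajc12, and had no island at its main promoter in any CR library. Ppargc1a averaged 2600 bp ± 693 in CR and 2083 bp ± 924 elsewhere (exact permutation p = 0.380, adjusted p = 1). SD and RD against the rest gave no member under 0.05 unadjusted, beside 0.782% and 2.48% of genes, and no member or gene (0%) after adjustment, by the same exact permutation test.

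**Figure D4:**
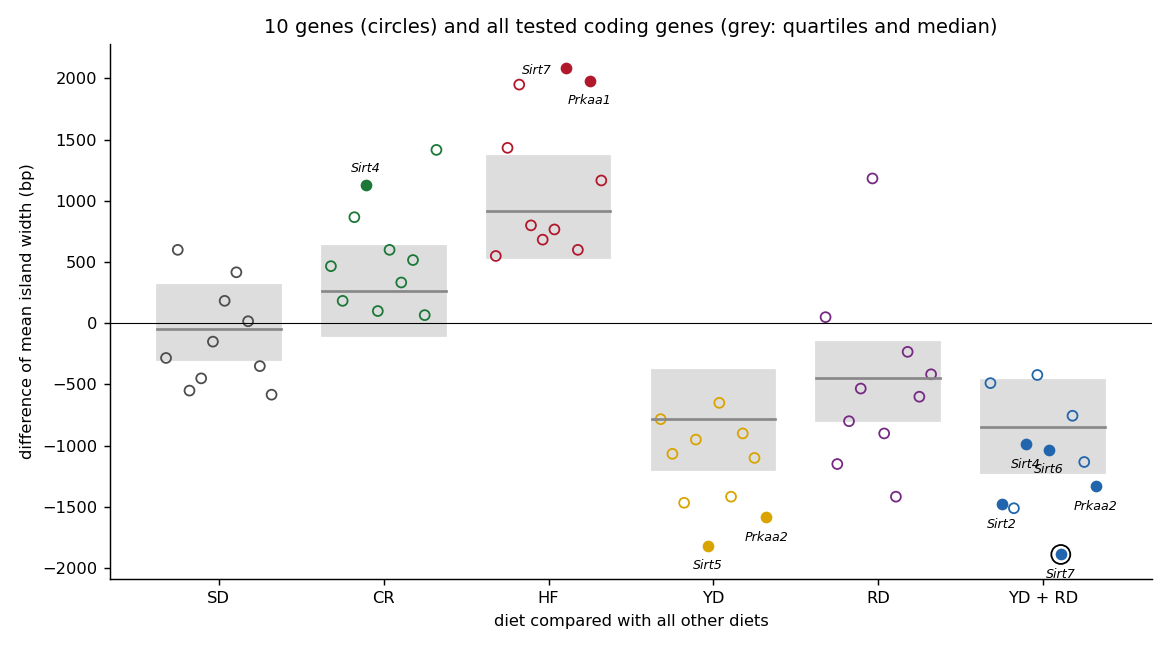
Circles are the 10 genes, each placed at its difference of mean island width in bp between a diet (or YD and RD together) and all other mice; filled circles have an unadjusted exact permutation p under 0.05 and the ringed one an adjusted p under 0.05. Grey boxes and lines are the quartiles and median over the 13044 genes tested, with medians of 917 bp in HF, -783 bp in YD and -844 bp in the corn diets.

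With SD as the reference, 3 mice against 3 cannot give an exact permutation p under 0.1, so only the absence of overlap was read. In CR, Prkaa2 was higher without overlap (2733 bp ± 462, SD, n = 3, against 1133 bp ± 1026), beside 4.64% of all genes. In HF, Sirt3 (4667 bp ± 416 against 2667 bp ± 1026) and Prkaa2 (2533 bp ± 115 against 1133 bp ± 1026) were higher without overlap, 2 of 10 members beside 15.6% of genes. In YD, Sirt2 (1267 bp ± 416 against 2600 bp ± 529) and Sirt5 (0 bp against 1333 bp ± 1137) were lower without overlap, beside 14.0% of genes. In RD no member stood apart from SD in either direction, beside 7.60% of genes that were lower and 0.337% that were higher. All of these comparisons share the 3 SD mice. Leaving out 1 library raised the share of all genes each time, while the counts of members rose or stayed the same. In CR the members higher without overlap were 3 without SD_1 (beside 10.8% of genes), 2 without SD_3 (7.11%) and 4 without CR_1 (15.6%). In HF they were 4 without SD_1 (27.0%), 5 without HF_2 (38.0%) and 3 without HF_3 (20.7%). In YD the members lower without overlap were 3 without SD_1 (17.0%), 5 without SD_3 (27.3%) and 4 without YD_1 (29.4%). In RD, Sirt6 and Sirt7 were lower (17.2%) and Sirt5 higher (0.659%) without SD_3, Sirt2 was lower without RD_2 (19.6% in either direction), and Sirt5 was higher without RD_3 (1.67%).

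The genes around the 10 in the pathway were read from 4 lists of 46 genes. Of the 8 tested genes for AMPK partner subunits and upstream kinases, all were lower in the corn diets and 2 passed after adjustment by the exact permutation test, beside 10.5% of all genes: Prkab1, the beta1 scaffold subunit (-1900 bp, adjusted p = 0.0393), and Prkag2, the gamma2 nucleotide-binding subunit (-1656 bp, adjusted p = 0.0350). The value of Prkag2 was that of an alternative promoter, and at its main promoter the difference was -133 bp (exact permutation test, adjusted p = 1). Prkag2 was the widest of this list by mean width (2960 bp ± 1067, SD, n = 15) and Camkk2, a calcium-dependent kinase upstream of AMPK, the narrowest of those marked (413 bp ± 805). Prkag3, the gamma subunit of skeletal muscle, had no island in any list.

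NAD supply and use had 11 tested genes, all lower in the corn diets, and 3 passed after adjustment in the same test, beside 10.5% of all genes. These were Naprt (-1611 bp, exact permutation test, adjusted p = 0.0376) and Nadsyn1 (-1667 bp, adjusted p = 0.0412), which make NAD from nicotinic acid, and Nmrk1 (-1022 bp, adjusted p = 0.0401), the kinase of nicotinamide riboside. Nmrk1 was the widest of the list (2547 bp ± 723, SD, n = 15) and Nmnat3 the narrowest of those marked (507 bp ± 580), while Nmnat2, the neuronal adenylyltransferase, had no island in any list. The median difference of the list was -1444 bp, beside -844 bp over all genes.

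Among 10 PGC-1 relatives and partner transcription factors only Pprc1, the PGC-1 related coactivator, passed (-2044 bp, exact permutation test, adjusted p = 0.0412), beside 10.5% of all genes. The median difference was -1661 bp. Ppara, the fasting-responsive nuclear receptor that PGC-1alpha coactivates, had the widest islands (4373 bp ± 2263, SD, n = 15) and Esrra the narrowest (1013 bp ± 1234). Of 15 metabolic targets, all lower in the corn diets, only Ulk1, an autophagy kinase phosphorylated by AMPK, passed (-978 bp, exact permutation test, adjusted p = 0.0389), again beside 10.5%. Their median difference was -900 bp. Fgf21, the fasting hormone, was marked in 1 list only. In HF no gene of the 4 lists passed the exact permutation test after adjustment, while unadjusted 1 of 8, 7 of 11, 6 of 10 and 5 of 15 did in the order above, beside 32.9% of all genes. Unadjusted, 4 of 8, 10 of 11, 8 of 10 and 5 of 15 passed in the corn diets by that test, beside 39.3% of all genes. All 7 genes called in these lists were lower in the corn diets, the direction of all 1376 calls over the genome. Without YD_3 no gene of the genome passed after adjustment, so none of these 7 calls held under that omission.

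The 3 members with the highest coefficient of variation were set beside all coding genes tested that do not share their islands. Over the 15 libraries, the widths of Sirt7 were most like those of Wdcp (Pearson r = 0.984), Dhx32 (0.970) and Fank1 (0.970). The largest of these Sirt7 widths, in SD_1, HF_1 and HF_3, were those of the island shared with Pcyt2. Those of Sirt4 were most like Akr1b3 (0.962), Myh10 (0.943) and Cbr1 (0.927), and those of Prkaa1 most like Ube2j1 (0.903), Ccdc88a (0.895) and Pdpr (0.884). All these points share the library and its depth, and the genes were marked in only 6 to 10 of the 15 lists. The like genes are the highest of 13044, so the coefficients describe a likeness and no more.

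Base composition did not order the 10 promoters by how often they were marked. CpG counts in 300 bp were 52 at Prkaa1, 47 at Sirt1, 37 at Prkaa2, 24 at Sirt3, 17 at Sirt7, 15 at Sirt2, 14 at Sirt5, 11 at Sirt4, 7 at Sirt6 and 3 at Ppargc1a, beside a median of 7 over all promoters. The lists marked at the main promoter were 8, 2, 11, 14, 7, 14, 11, 8, 10 and 14 in the same order. Over the 14461 protein-coding genes with a sequence the mean number of lists was 0.946 below 4 CpG, 2.08 from 4 to 7, 6.66 from 8 to 19, 9.22 from 20 to 34, 9.16 from 35 to 44 and 7.88 from 45. These classes use RefSeq promoter windows within 500 bp of the main TSS, while the 10 counts use windows at the GENCODE TSS. The only RefSeq window of Ppargc1a lies at its upstream promoter, and the windows of Sirt4 and Sirt6 also differ. The places of Ppargc1a, Sirt4 and Sirt6 against a class are therefore approximate. Ppargc1a lay farthest above the mean of its class (14 lists against 0.946), and Sirt1 was the only one of the 10 below (2 against 7.88). GC boxes were found in 7 of the 10 main promoters (35.7% of all promoters), CCAAT in 3 (37.4%), the E-box in Sirt1 only (7.15%), and TATAAA in none (13.6%). Here too the counts use the GENCODE windows and the percentages RefSeq windows, so they are only roughly comparable.

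**Figure D5:**
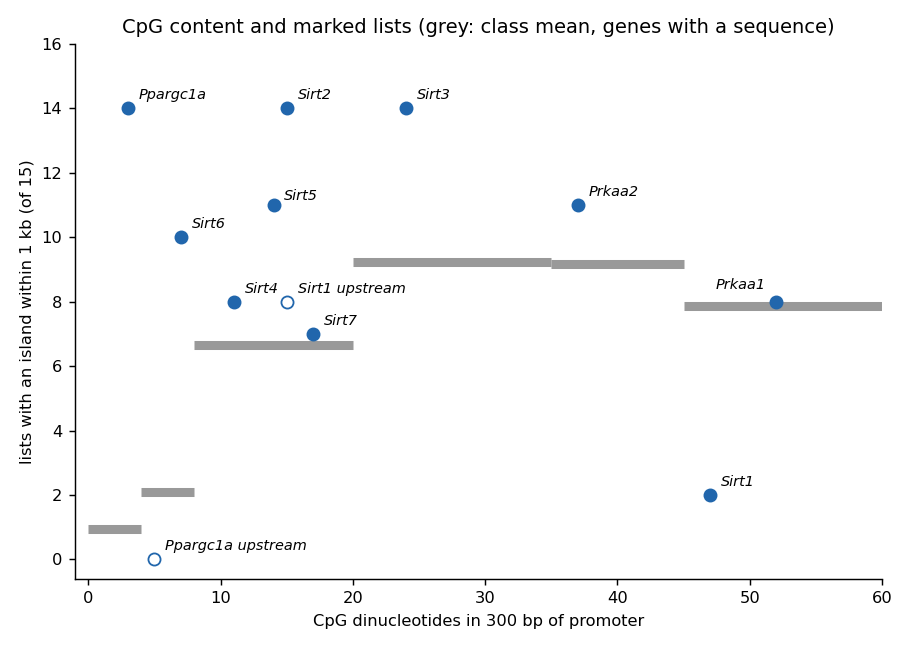
Points are the 10 main promoters (filled) and the upstream promoters of Sirt1 and Ppargc1a (open), with the number of CpG in 300 bp on the x axis and the number of lists with an island within 1 kb on the y axis; grey bars are means over the 14461 protein-coding genes with a sequence, by CpG class. Ppargc1a (3 CpG, 14 lists) lies above the mean of its class and Sirt1 (47 CpG, 2 lists) below.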

How the data were processed

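H3K4me3 islands of 15 mouse livers, 3 per diet, were read from the 15 deposited SICER2 tables, 1 per library, with position and score. Per the paper's methods, the authors mapped 50 bp reads with bwa to mm10. They kept non-duplicate reads of MAPQ 1 or more on the 19 autosomes and X, and called islands with a fragment and window of 200 bp and a gap of 400 bp. An FDR under 0.05 is stated, but whether it was applied to these score lists is not given in the sources used here. The score in the authors' lists adds up negative log Poisson probabilities of window counts and served only as a rank. Reads were recovered from score steps at an effective genome fraction of 0.74, to within 4.60e-04 of a whole number.

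TSSs are from GENCODE M21 and promoters from RefSeq. Mean widths were compared by two-sided exact permutation tests over mice, with Benjamini-Hochberg adjustment over all genes tested (threshold 0.05), using 455 assignments for 1 diet against 12 mice and 5005 for the corn diets. Read counts per island are unknown, so errors are those between mice. Members and lists were chosen with earlier results of these data known. Other genes were named if they shared an island, were among the 3 most alike, or, in a pathway list, were called, never marked, widest or narrowest. Some genes that this rule takes in are not reported here. The main-promoter reading was added after the data were seen. Alternatives covered island and TSS rules, scale, replicate block, form of name and omission of each library. Python 3.11.15 was used with scipy 1.17.1, numpy 2.4.6, matplotlib 3.10.9 and pandas 2.3.3, and the calculations were tested on simulated data.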

Additional observations from a re-analysis of the deposited data

How the results depend on the processing

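The number of marked pairs, 107 of 150, became 71 with an equal number of highest-scoring islands per list and also 71 with islands at or above the median score, was within 1.5 times of the main count under the other 5 rules, and ranged from 97 to 106 over the omissions of each library in turn. The count of members called in the corn diets, 1, became 0 with the highest-scoring islands, with islands at or above the median score, with a TSS within 3 kb or inside the island, with TSSs of protein-coding transcripts only, at the main promoter, on width percentiles, on summed widths, under the replicate block and within the ChIP form of name. It became 3 on log2(width + 200) (Sirt2, Sirt6 and Sirt7), beside 24.0% of all genes on that scale, and 2 on score percentiles (Sirt2 and Sirt7), beside 18.6%. It stayed at 1 with islands of at least 600 bp, beside 10.5%, and under the rules that gave 0 the share of genes called ran from 0% to 12.2%. Over the omissions it ranged from 0 to 3, with Sirt4 and Sirt6 joining Sirt7 without SD_3 (adjusted p = 0.0471 and 0.0279, exact permutation test, beside 18.7% of genes) and Sirt2 and Prkaa2 called in its place without RD_2 (adjusted p = 0.0389 and 0.0488, beside 14.3%). The cause of these changes was not tested. The counts of 0 called in SD, CR, HF, YD and RD against the rest held under every alternative run. With all libraries no exact permutation p can fall under 0.00220 there, and adjustment over 13044 genes left none under 0.0701. A count of 0 was thus largely set by the number of mice, and that it held is no evidence of unchanged widths. Within the ChIP form the corn test (5 against 5 mice) cannot give an exact permutation p under 0.00794.

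The counts of members without overlap against SD ranged over the omissions from 1 to 4 in CR, 2 to 5 in HF, 2 to 5 in YD and 0 to 3 in RD, while the share of all genes without overlap ranged from 10.5% to 17.1%, 18.8% to 38.2%, 15.8% to 29.6%, and 11.2% to 19.6%. The counts with all libraries were the same at the main promoter. Same-numbered mice are different animals. Their deviations from the diet means correlated at -0.0305 on average (-0.313 to 0.247 over 30 pairs). Mice of different number stood at 0.0163 (-0.299 to 0.294 over 60 pairs). No pairing by replicate number was thus seen in these deviations, while a shared batch or litter was not tested. With equal numbers of highest-scoring islands the difference turned to 66.7 bp for Sirt1 and 167 bp for Sirt4 in the corn diets, to -200 bp for Sirt1, -83.3 bp for Sirt4 and -50 bp for Sirt5 in HF, and to -83.3 bp for Sirt4 in CR. On width percentiles HF turned to -3.21 for Ppargc1a and -3.41 for Sirt1. Within the PATChIP form the corn difference turned to 500 bp for Ppargc1a, 350 bp for Sirt1 and 700 bp for Sirt5, and that of HF to -333 bp for Ppargc1a, -367 bp for Sirt1 and -167 bp for Sirt4. Sirt5 in HF turned to -66.7 bp within the ChIP form, and ranged from -16.7 bp (without HF_2) to 1183 bp over the omissions. None of the values that turned had passed the adjusted test. Read numbers per island are not in the lists, so a width of 0 means only that no island was called in that library.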
